A study of Mus musculus with 20 samples.

Results

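Ribosome biogenesis factors are the proteins that make ribosomes but are not part of the finished ribosome. The 39 genes described here were taken by name from a list of such factors, and each was found under its own symbol among the 24885 genes of the deposited count table. All 39 were also among the 18918 genes tested. Bop1, another 60S assembly factor, was left out because its locus overlaps that of Scx, whose RNA was far higher in the KO libraries. Otherwise no measured value entered the rule, but the choice was made with earlier results of these data known.

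Ribosome production begins in the nucleolus, where RNA polymerase I copies the ribosomal DNA into a long precursor RNA. Small nucleolar RNAs (snoRNAs), carried by box C/D and box H/ACA protein complexes, guide methylation and pseudouridylation of that precursor. The small subunit processome and later 40S factors shape the small subunit, and a separate set of factors builds the 60S subunit. The pathway is a main cost of cell growth, and it is known to be raised by MYC and by mTOR signalling, which IGF1 can switch on. In tendon, tenocytes make the collagen matrix, and their protein synthesis rises when the tendon is loaded.

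RNA of mouse plantaris tendon was sequenced in 20 libraries, 4 in each of 5 groups. All mice carried IGF1Rflox/flox, that is, both alleles of the IGF1 receptor gene with flox sites. The groups called WT were ScxCreERT2-/- and the groups called KO were ScxCreERT2+/+, so the tamoxifen-activated recombinase is under control of Scx, a transcription factor gene of tenocytes, and other cells of the tendon would keep the receptor. WT day 0 mice had no tamoxifen and no growth stimulus. WT and KO mice of day 7 and day 14 had tamoxifen and a growth stimulus for those numbers of days, so stimulus and tamoxifen cannot be told apart in any comparison with day 0. There was no KO day 0 group among the samples. No age was used here. Whether each library came from its own mouse is not stated in the labels, and the tests therefore weigh only library-to-library spread, part of which may be technical.

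Depth ranged from 32254411 to 63522834 counts per library, and no member had fewer than 188 counts in any library. Levels are given in CPM, counts scaled to the library total after TMM correction. The whole-gene Igf1r count was not lower in KO, whose mean was 51.3 CPM at day 7 and 53.1 CPM at day 14, beside 49.1 and 45.3 CPM for WT. It covers exons outside a floxed part as well, so it checks neither deletion nor label. Scx was higher in every KO library (557 to 1153 CPM at day 7) than in every WT library (44.8 to 57.1 CPM at day 7). All 10 tenocyte markers had counts in every library, which fits the labelled tissue. Muscle fibre markers were present too: the summed level of 20 such genes was 31423 to 79924 CPM at WT day 0, 288 to 2082 at WT day 7, 5857 to 14595 at KO day 7, 3273 to 26767 at WT day 14 and 1905 to 30305 at KO day 14. KO day 7 replicate 2 stood apart for 5 keratinocyte markers, with 680 CPM against 3.60 to 12.7 in the other KO day 7 libraries. In such bulk tissue, fewer cells of a type and less RNA per cell cannot be told apart.

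Promoters are shown first because the members move together and several share short motifs near their start. RefSeq promoters of build GRCm38.p6, reaching from 250 bases before to 50 bases after the start, were matched for 35 of the 39 genes. The E-box CACGTG, which reads the same on both strands and is the best known binding sequence of MYC with MAX, was in promoters of 7 of the 35 (20%), against 10.8% of 13020 tested genes and 8.09% of all 27025 genes with a promoter. The ETS core CCGGAAG, searched on both strands as CCGGAAG or CTTCCGG, was in 13 of the 35 (37.1%), against 16.9% of tested genes and 9.93% of all genes. A match is a description of letters, and binding was not measured here. Of the 7 genes with an E-box, 6 were among the 23 with a promoter that rose at WT day 7, and 1 was among the 12 that did not pass the test. For the ETS core the same split was 9 of 23 and 4 of 12. Of 3 further motifs searched on both strands, CATGTG was in 7 of the 35 (20%, against 15.9% of all genes), while the NRF1 motif GCGCATGC and the YY1 motif AAGATGGCG were in 0 of the 35 windows (3.05% and 1.64% of all genes). The share among tested genes was not computed for these 3, and at such low shares 0 of 35 is not unusual.

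The windows below hold 30 bases each, 5′ to 3′ on the gene's own strand, with the E-box in capitals. They are shown because in 6 of the 7 genes the motif starts within 40 bases after the start site.
Ltv1, chr10:13193092-13193121, minus strand: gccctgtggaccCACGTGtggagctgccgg
Mybbp1a, chr11:72441347-72441376, plus strand: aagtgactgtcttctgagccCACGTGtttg
Pes1, chr11:3963965-3963994, plus strand: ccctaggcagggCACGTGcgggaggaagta
Tsr1, chr11:74898092-74898121, plus strand: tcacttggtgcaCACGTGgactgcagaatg
Utp20, chr10:88826765-88826794, minus strand: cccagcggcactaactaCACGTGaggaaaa
Wdr43, chr17:71616220-71616249, plus strand: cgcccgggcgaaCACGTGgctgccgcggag
The motif starts 28, 40, 2, 24, 37 and 17 bases after the start, in that order.

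In Nop2, which encodes the methyltransferase of the large subunit's RNA, the E-box lies 60 bases before the start and an ETS core 38 bases before it. Its 250 bases before the start, which overlap no annotated exon, are shown with both motifs in capitals.
Nop2, chr6:125131633-125131882, plus strand: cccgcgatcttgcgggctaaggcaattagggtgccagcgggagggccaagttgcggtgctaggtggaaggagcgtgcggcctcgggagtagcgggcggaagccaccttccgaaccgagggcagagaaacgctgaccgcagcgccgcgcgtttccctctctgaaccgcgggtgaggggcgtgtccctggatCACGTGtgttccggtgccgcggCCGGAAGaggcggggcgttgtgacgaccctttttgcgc
The ETS windows of 4 members whose values are given in full below follow, with that core in capitals.
Nhp2, chr11:51619739-51619768, plus strand: cacttgaaaacCCGGAAGtgatgtcggagg
Heatr1, chr13:12395348-12395377, plus strand: gtagtgagaagCCGGAAGttcctatgaggc
Ddx10, chr9:53248281-53248310, minus strand: ttgcgctgtttCCGGAAGccccaagcactc
Nip7, chr8:107056763-107056792, plus strand: gctttcggtccCCGGAAGtccgccacggta
These cores start 23, 16, 187 and 103 bases before the start, respectively.

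A further feature lies within the genes themselves. A gene is called a host here if an annotated snoRNA gene lies between its ends on the same strand. Introns and exons were not told apart. Of the 39 members, 7 (17.9%) host annotated snoRNA genes: Nop56, Nop58, Dkc1, Ncl, Gnl3, Wdr43 and Tsr1. Among the 16904 protein-coding genes of the count table, 261 (1.54%) host any. Nop56 holds 5 of them and Nop58 holds 4, and both proteins are themselves core parts of the box C/D particle.

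At rest, in WT day 0 tendon, the members spanned a wide range of levels per kilobase of exon. Npm1, a nucleolar histone and ribosome chaperone, had the highest at 27.1 CPM per kb, and Ncl, which encodes nucleolin, had 25.8. Nop10 (19.1), Mybbp1a (18.2) and Noc2l (15.3) came next. Wdr12, a 60S factor, had the lowest at 1.09 CPM per kb and Fbl, the box C/D methyltransferase fibrillarin, 1.47. Exon lengths join all annotated transcripts, so genes with long rarely used exons are understated on this scale.

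The first week of the stimulus is covered by WT day 7 against WT day 0. Most ribosome biogenesis genes rose. Of the 39, 26 rose and 0 fell by edgeR's quasi-likelihood test (Benjamini-Hochberg adjusted p below 0.05 over all genes), where 32.3% of all genes tested rose and 31.8% fell (64.1% either way). DESeq2 also called 0 lower, and 0 members fell at an unadjusted p below 0.05. The median log2 change was 0.44 over the members and 0.02 over all genes, and 36 of the 39 values were positive. In 23 members every day 7 library was above every day 0 library, as in 30.4% of all genes, and in 0 members every one was below, as in 30.2%.

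The abundant nucleolar proteins changed most, with all 4 higher. Npm1 (chromosome 11, 33152287 to 33163206, minus strand, GRCm38) stood at 78.0, 76.4, 67.0 and 67.9 CPM at WT day 0, in replicate order. At WT day 7 it had 162, 189, 155 and 151 CPM. Every day 7 library lay above every day 0 library, and the log2 change was 1.18 ± 0.11 (SE, n = 4 per group; edgeR adjusted p = 2.29e-08). Gnl3 encodes nucleostemin, a nucleolar GTPase of proliferating cells. It went from 35.1, 37.0, 38.0 and 34.7 CPM to 78.9, 93.1, 69.7 and 93.3 CPM, a log2 change of 1.21 ± 0.16 with no overlap (adjusted p = 1.81e-06). Ncl had 269.5, 269, 253 and 262 CPM at day 0 and 396, 505, 400.3 and 411 CPM at day 7. Its log2 change was 0.70 ± 0.10 (adjusted p = 6.75e-06), and replicate 2 of day 7 was well above the other 3. Nolc1, a chaperone of snoRNA particles, rose by 0.57.

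Box C/D genes followed, with 3 of 4 higher. Nop58 had 25.1, 29.2, 24.97 and 24.5 CPM at WT day 0 and 52.5, 70.2, 52.2 and 57.1 CPM at WT day 7, again without overlap (log2 change 1.16 ± 0.19, adjusted p = 3.29e-05). Fibrillarin's gene Fbl rose from 6.57, 6.77, 6.04 and 5.42 CPM to 9.02, 12.5, 8.73 and 10.5 CPM (log2 change 0.72). Nop56 went from 30.3, 29.8, 31.6 and 27.4 CPM to 39.8, 56.9, 38.9 and 46.5 CPM (log2 change 0.61). Rrp9, a protein of the U3 particle that starts precursor cleavage, did not pass: its means were 17.0 ± 0.45 and 17.5 ± 3.3 CPM (SD, n = 4).

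The 4 box H/ACA proteins, which form a single pseudouridylation complex, did not move alike in their RNA levels. Nhp2 rose from 16.1, 16.4, 18.03 and 17.8 CPM to 34.0, 45.4, 34.7 and 35.4 CPM, with no overlap (log2 change 1.13 ± 0.15, adjusted p = 2.78e-06). Gar1 had 11.5, 11.5, 11.2 and 11.6 CPM and then 10.3, 17.7, 13.9 and 15.4 CPM, and its change of 0.33 ± 0.15 did not pass (adjusted p = 0.0664). For Dkc1, the pseudouridine synthase dyskerin, the means were 26.1 ± 0.64 and 29.4 ± 5.5 CPM, and its change of 0.17 did not pass. Nop10, the smallest subunit, had 22.5, 20.6, 20.7 and 20.9 CPM and then 17.7, 20.9, 16.4 and 17.0 CPM. Its change of -0.23 ± 0.14 did not pass either (adjusted p = 0.165), and the groups overlapped.

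**Figure D1:**
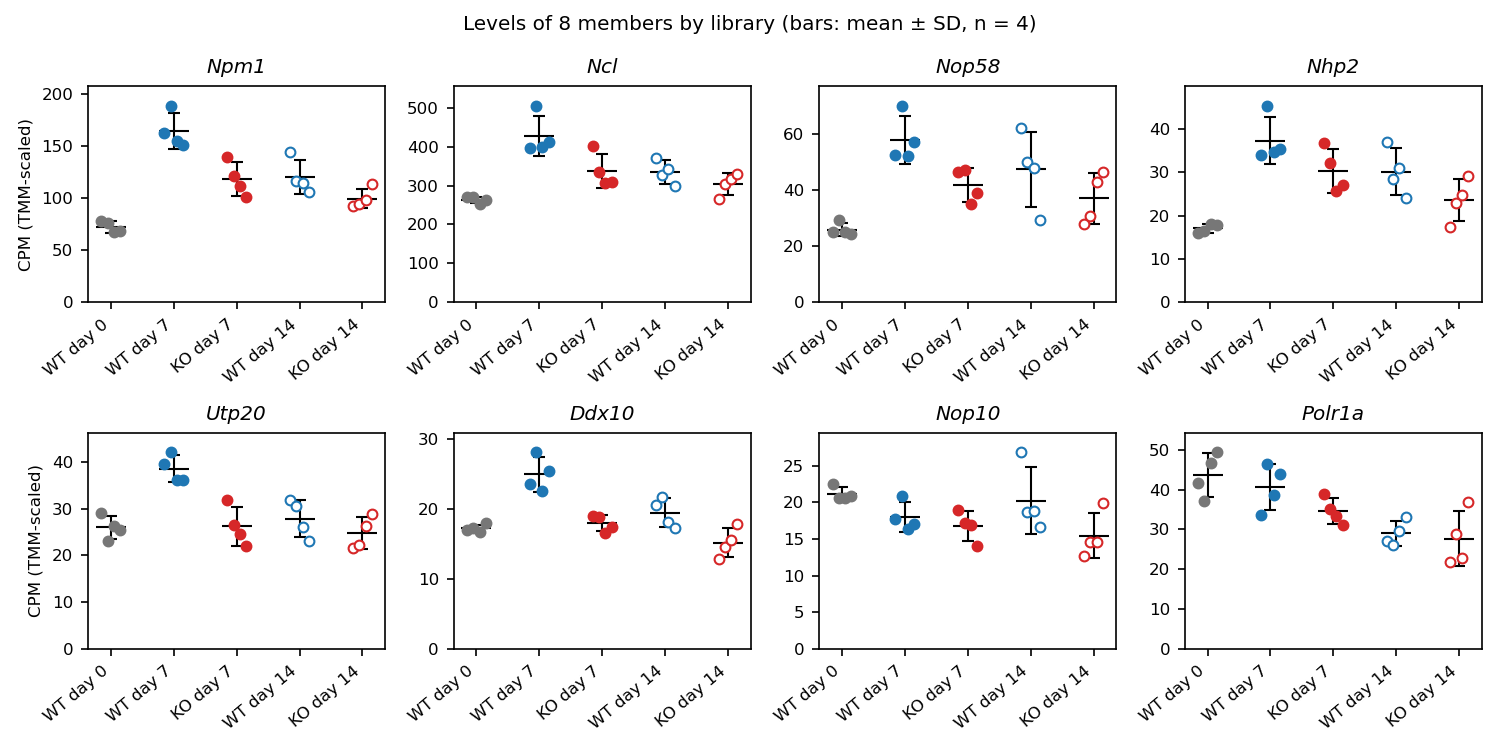
Levels of 8 members in CPM (vertical axes, TMM-scaled, starting at 0) in each of the 20 libraries, by group on the horizontal axes; points are libraries, black bars the mean ± SD of 4. Npm1, Ncl, Nop58, Nhp2, Utp20 and Ddx10 stand higher in all 4 WT day 7 libraries than in any WT day 0 library, while Nop10 and Polr1a overlap between those groups.

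Of the 5 genes of RNA polymerase I and its regulators, 3 rose at WT day 7. Ddx21, an RNA helicase that acts in ribosomal DNA transcription, had 74.0, 71.3, 81.6 and 76.7 CPM at day 0 and 88.4, 139, 104 and 119 CPM at day 7 (log2 change 0.57 ± 0.15, adjusted p = 0.00238). Mybbp1a, a nucleolar regulator of transcription, went from 102, 96.5, 113 and 111 CPM to 104, 157, 135 and 144 CPM. Day 7 replicate 1 stayed within the day 0 range, and the log2 change was 0.35 (adjusted p = 0.00931). Polr1c, a subunit shared with RNA polymerase III, rose from 22.2, 23.5, 20.7 and 20.1 CPM to 25.4, 28.4, 26.0 and 25.9 CPM (log2 change 0.29). The genes of the catalytic subunits did not pass: Polr1a had means of 43.8 ± 5.5 and 40.7 ± 5.7 CPM, and Polr1b 21.5 ± 1.5 and 24.1 ± 4.4 CPM.

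Among the 12 genes of the small subunit processome and the 40S path, 8 rose. Heatr1, a large processome scaffold, had 24.5, 24.7, 24.5 and 22 CPM at day 0 and 35.4, 58.3, 44.5 and 50.7 CPM at day 7 (log2 change 0.98 ± 0.17, adjusted p = 4.36e-05). Ltv1, a late 40S factor, went from 25.2, 25.02, 24.8 and 26.0 CPM to 35.4, 43.8, 35.8 and 41.0 CPM (log2 change 0.63). Utp20, another large scaffold, rose by 0.57 ± 0.12 and the RNA helicase gene Ddx10 by 0.53 ± 0.10. Neither of these overlapped between the groups. Utp15, Wdr43, Rcl1 and Bysl rose by 0.33, 0.44, 0.39 and 0.36. Nop14, Nat10, Tsr1 and Rrp12 had changes of 0.01, 0.14, 0.23 and -0.16 that did not pass.

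In the 60S path 7 of 10 rose. Pes1, which forms a complex with Bop1 and Wdr12, had 29.8, 32.5, 32.3 and 32.6 CPM at day 0 and 45.2, 52.2, 44.7 and 50.4 CPM at day 7 (log2 change 0.60 ± 0.10, adjusted p = 2.14e-05). The helicase gene Ddx18 rose from 9.57, 10.1, 9.02 and 10.7 CPM to 13.7, 17.9, 14.1 and 15.5 CPM (log2 change 0.63). Nip7 went from 13.5, 14.6, 16.6 and 15.7 CPM to 22.1, 27.4, 21.4 and 26.2 CPM (log2 change 0.68). No library of day 7 overlapped day 0 in these 3 genes. Nop16, Nop2, Rrs1 and Noc2l rose by 0.62, 0.49, 0.47 and 0.38. Wdr12, Ebna1bp2 and Noc3l had changes of 0.28, 0.07 and 0.23 that did not pass. Noc2l, Tsr1, Bysl and Nop14 share 20.9%, 32.3%, 9.37% and 5.28% of their exon length with a gene on the opposite strand, and since no strand setting is given, reads of the pairs cannot be told apart. Reads from pseudogene copies were not separated for any member either, and Npm1 is a gene known to have many.

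Other signals moved with this comparison. All 18 cell cycle markers rose, their sum going from 142 to 170 CPM at day 0 to 784 to 1051 CPM at day 7. Of the 20 muscle markers 19 fell, and all 10 macrophage markers and all 4 neutrophil markers tested rose. All 8 adipocyte markers fell, their sum going from a mean of 1602 to 265 CPM, and 4 of 7 endothelial markers fell. With a muscle score as a covariate, 4 members rose (Npm1, Gnl3, Nhp2 and Ncl) and the members' median was 0.34. Calls over all genes fell as well, from 12133 to 5776 of 18918. Muscle sums did not overlap between these groups, so this fit can hardly separate the score from the day. The part of cell division and of these other cell types in the rise was not tested. Without WT day 7 replicate 2, which was highest of its group in 34 of 39 members, 21 rose.

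**Figure D2:**
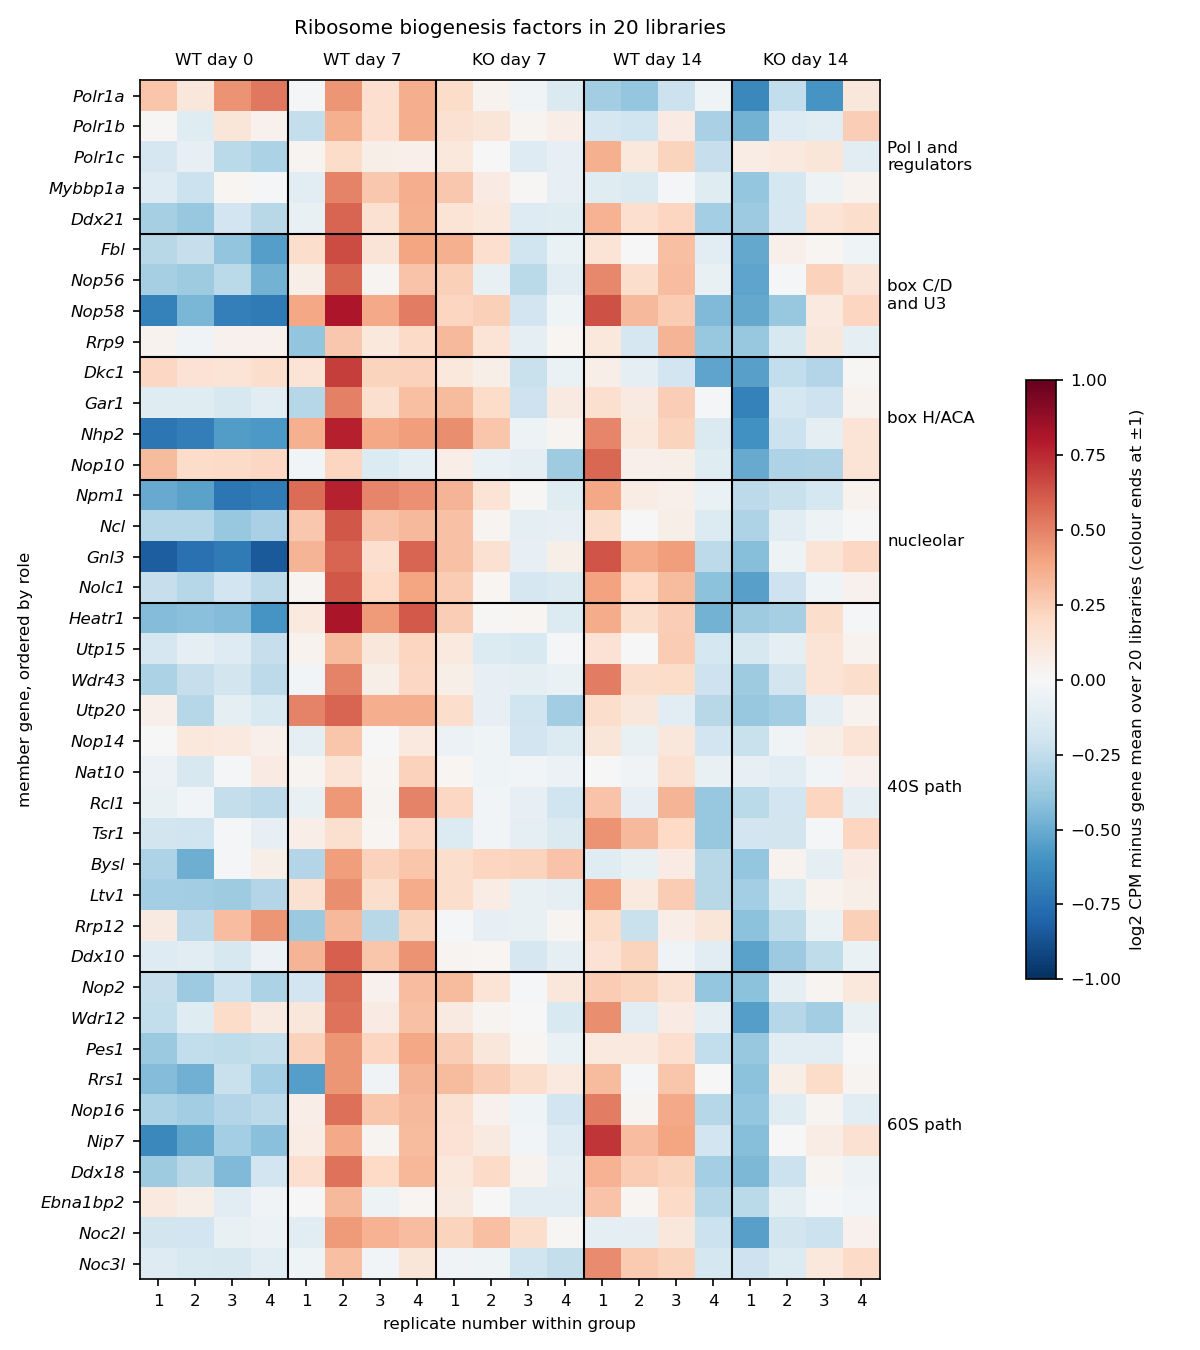
Heat map of 39 members (rows, by role) in 20 libraries (columns, by group and replicate number); colour is log2 CPM minus the gene's mean over the 20 libraries, with the scale ending at -1 and 1. Most rows are blue at WT day 0 and red at WT day 7, and single columns stand out across most rows, such as WT day 7 replicate 2 (highest of its group in 34 members) and KO day 14 replicate 1 (lowest of its group in 37).

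Genes of the same pathway outside the 39 were counted by list at WT day 7. Of 12 other RNA polymerase I factors 3 rose and 2 fell (median 0.05): Taf1d and Polr1e rose by 0.98 and 0.90, while Polr1d and Ubtf fell by 0.26 and 0.19. Of 34 other processome and 40S factors 20 rose and 4 fell (median 0.30), with Dcaf13 at 0.77 and Nol7 at -0.68. Of 48 other 60S factors 26 rose and 4 fell (median 0.24), with Urb2 at 0.89 and Eif6, which keeps the 60S subunit from joining too early, at 0.82. The nuclear exosome, the nuclease that trims ribosomal precursors, had 8 of 13 higher (median 0.26), led by Mphosph6 at 0.82. Of 11 genes of the MYC network 4 rose and 4 fell. Myc rose by 1.55 ± 0.24, from 15.7 to 16.4 CPM at day 0 to 32.3 to 58.2 CPM at day 7. Mxd3 rose by 3.71 and Mxi1 fell by 0.59. Of 12 non-coding snoRNA host genes 6 rose and 1 fell, with Snhg15 at 1.23.

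By WT day 14, 20 members stood above WT day 0 and 2 below it, against 28% and 26.2% of all genes (54.3% either way), with a median of 0.31 (0.02 over all genes). Groups did not overlap for 11 higher members and 2 lower, against 23.2% and 23% of all genes. Gnl3 was again furthest up at 1.11 ± 0.16, with 96.0, 80.6, 83.1 and 51.9 CPM (adjusted p = 9.02e-06). Next came Nop58 (0.87), Nhp2 (0.82), Nip7 (0.82) and Npm1 (0.73). The pair that fell were Polr1a and Dkc1. Polr1a, the largest subunit of RNA polymerase I, had 41.7, 37.1, 46.8 and 49.5 CPM at WT day 0 and 27.0, 26.2, 29.6 and 33.2 CPM at WT day 14 (log2 change -0.59 ± 0.15, adjusted p = 0.00192). Dkc1 had 26.9, 25.7, 25.5 and 26.4 CPM and then 24.3, 21.8, 20.4 and 16.1 CPM (log2 change -0.34 ± 0.13, adjusted p = 0.0395). Both were without overlap. With the muscle score as a covariate, 7 were higher and 0 lower, while the median was 0.27 and 33 values were positive, against 31 without it. Calls over all genes went from 10268 to 8112 of 18918. The call of Dkc1 was lost, leaving 1 lower member, without any single library of either group except WT day 14 replicate 1.

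From WT day 7 to WT day 14 the direction turned. Of the 39, 9 fell and 0 rose, against 14.3% and 16% of all genes, with a median of -0.16 (0.02 over all genes). At an unadjusted p below 0.05, 11 were lower and 0 higher, beside 40.6% of all genes in either direction. DESeq2 also called 0 higher. The 9 came from every role except box C/D and U3, and 7 of the 39 did not overlap between groups (12.7% of all genes). Npm1 fell from 162, 189, 155 and 151 CPM to 144, 116, 114 and 106 CPM (log2 change -0.45 ± 0.11, adjusted p = 0.00421), still above every day 0 library. Ncl fell by 0.36, Dkc1 by 0.51, Polr1a by 0.49 and Mybbp1a by 0.37. Utp20 fell from 39.7, 42.1, 36.2 and 36.2 CPM to 31.8, 30.5, 26.1 and 23.2 CPM (log2 change -0.47 ± 0.12, adjusted p = 0.00721), which overlaps its day 0 range of 23.1 to 29.1 CPM. Ddx10 fell by 0.36, Noc2l by 0.32 and Pes1 by 0.29. The cell cycle sum fell over the same interval, to 268 to 508 CPM, with 17 of 18 markers lower, and 19 of 20 muscle markers rose. All 10 tenocyte markers rose, with sums of 49247 to 61001 CPM at day 7 and 65934 to 148900 CPM at day 14. Macrophage sums fell from 3514 to 5990 CPM to 2791 to 3207 CPM, and neutrophil sums from 75.8 to 150.4 CPM to 24.1 to 36.1 CPM. The part of these cell types was not tested. Without WT day 7 replicate 2, 4 of the 9 calls were made (Ddx10, Dkc1, Npm1 and Utp20). With the muscle score only Polr1a was called, while calls over all genes fell from 5745 to 2908 of 18918. The median was -0.05 without WT day 7 replicate 2, -0.04 without WT day 14 replicate 4, -0.24 without WT day 14 replicate 1 and -0.04 with the muscle score. Library totals without scaling factors gave 16 lower, with the median of all genes at -0.17 and that of the members at -0.33.

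**Figure D3:**
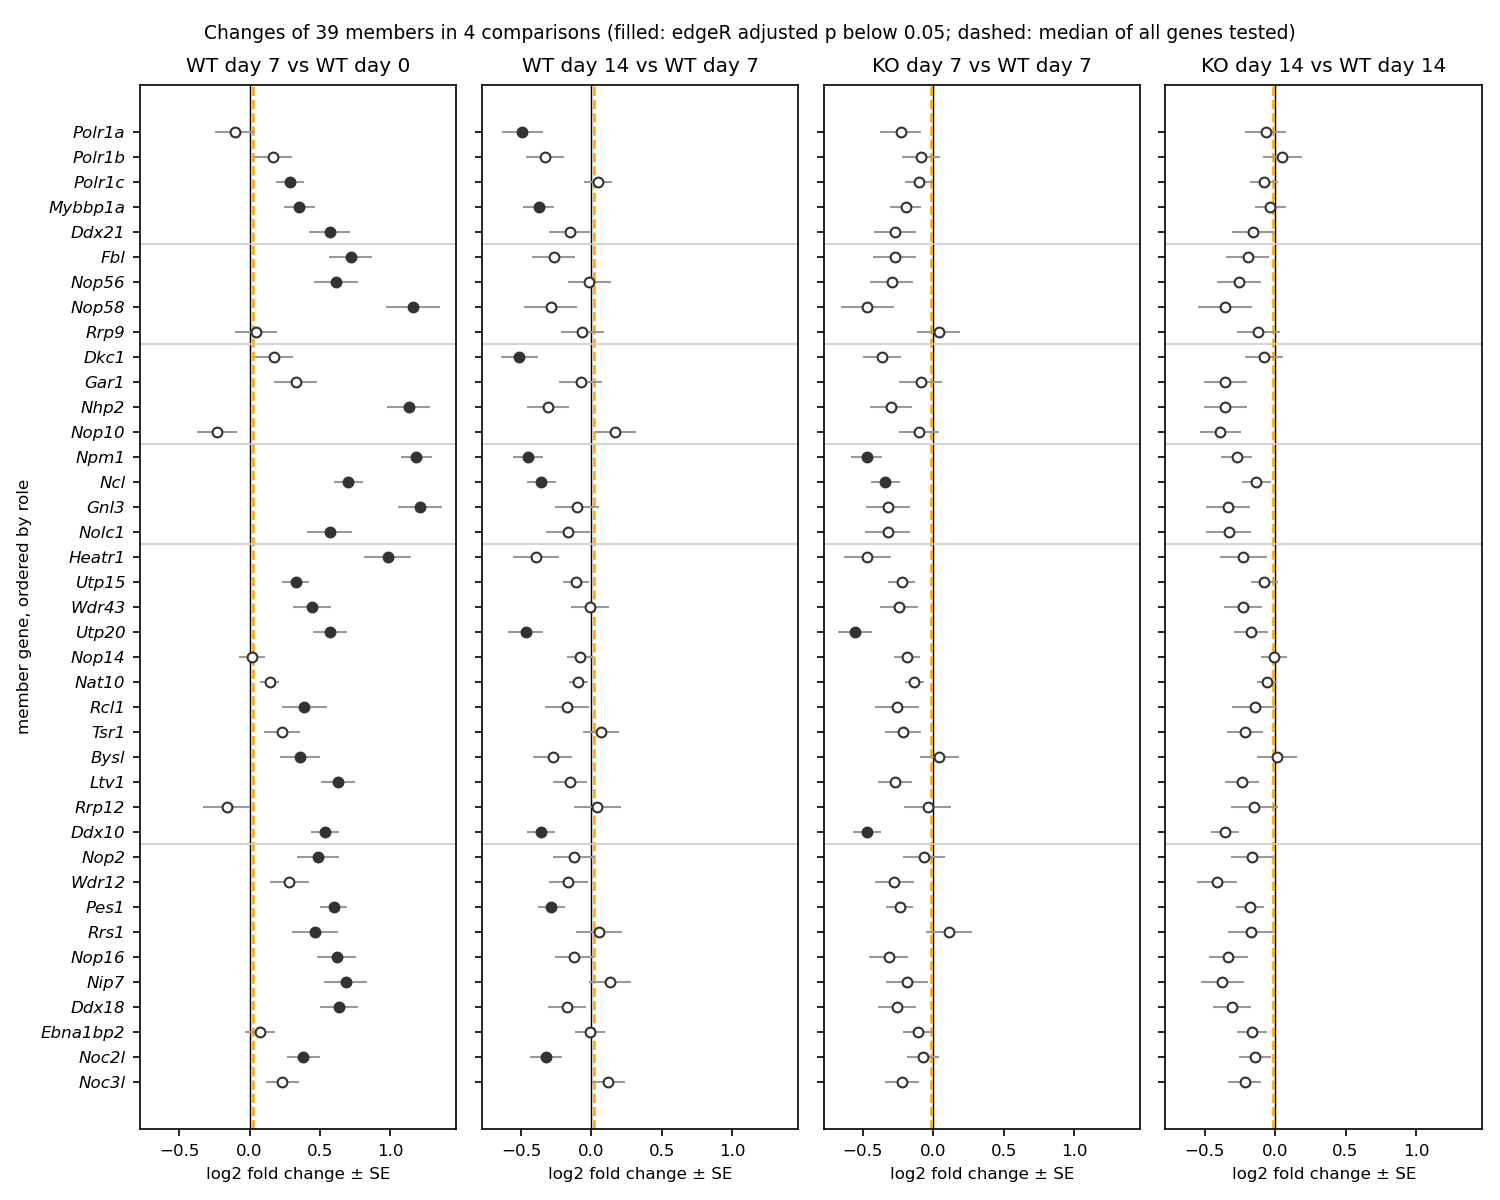
Log2 fold change ± SE (horizontal axes) of the 39 members (rows, by role) in 4 comparisons; filled points passed edgeR's test at an adjusted p below 0.05, open points did not, and the dashed line is the median of all 18918 genes. Filled points number 26 to the right in WT day 7 vs WT day 0, 9 to the left in WT day 14 vs WT day 7, 4 to the left in KO day 7 vs WT day 7 and 0 in KO day 14 vs WT day 14.

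KO was next compared with WT at day 7. The KO groups carry the recombinase and had far more Scx RNA, besides the targeting of Igf1r in tenocytes. These cannot be told apart in any comparison of KO with WT. Members were mostly a little lower in the libraries labelled KO. Of the 39, 4 were lower and 0 higher, against 5.42% and 9.39% of all genes. The median was -0.24 (-0.01 over all genes), and 3 of 39 values were positive. Without WT day 7 replicate 2 the median was -0.15 and 6 values were positive. At an unadjusted p below 0.05, 11 were lower and 0 higher, beside 30.5% of all genes in either direction. DESeq2 called 5 lower and 0 higher, adding Heatr1, beside 3699 of 18900 genes in either direction. In 7 members every KO library was below every WT library, against 10.3% of all genes.

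The 4 called genes belong to 2 roles, the abundant nucleolar proteins and the small subunit processome. Utp20 (chromosome 10, 88746607 to 88826804, minus strand) had 39.7, 42.1, 36.2 and 36.2 CPM in WT and 31.8, 26.6, 24.5 and 22.1 CPM in KO. No libraries overlapped, and the log2 difference was -0.55 ± 0.12 (SE, n = 4 per group; adjusted p = 0.00631). Ddx10 (chromosome 9, 53098635 to 53248053, minus strand) had 23.6, 28.1, 22.5 and 25.4 CPM in WT and 19.0, 18.8, 16.6 and 17.4 CPM in KO, also apart (-0.47 ± 0.10, adjusted p = 0.00436). Against WT day 0, where they had means of 26.0 and 17.2 CPM, KO day 7 levels of Utp20 and Ddx10 differed by 0.02 ± 0.12 and 0.06 ± 0.10, which did not pass (adjusted p = 0.924 and 0.626).

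Npm1 and Ncl kept part of the distance from day 0. Npm1 had 139, 121, 111 and 101 CPM in KO day 7, each below the lowest WT day 7 library (log2 difference -0.47 ± 0.11, adjusted p = 0.00857) and each above the highest of WT day 0. Ncl (chromosome 1, 86344719 to 86359400, minus strand) had 402, 334, 307 and 310.2 CPM in KO. Replicate 1 fell inside the WT range, and the difference was -0.34 ± 0.10 (adjusted p = 0.0317). The exact permutation test, two-sided, gave p = 0.0286 for Utp20, Ddx10 and Npm1, the smallest that 4 against 4 libraries allow, and 0.0857 for Ncl.

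Several others were lower in every KO library without passing edgeR's adjusted test. Nop58 had 46.5, 47.3, 35.0 and 38.9 CPM in KO (log2 difference -0.47 ± 0.19, adjusted p = 0.0995), and Dkc1 had 25.03, 24.2, 19.9 and 22.2 CPM (-0.37 ± 0.13, adjusted p = 0.0705). Nat10, an RNA acetyltransferase, and Tsr1, a late 40S factor, had differences of -0.13 and -0.21. Rrp9, Bysl and Rrs1 were the 3 with a positive difference, at 0.04, 0.04 and 0.11.

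The call of Ncl was lost without any of 5 single libraries (smallest size -0.24, adjusted p = 0.14, without WT day 7 replicate 2) and when only the 2 compared groups were fitted (adjusted p = 0.0558). Those of Npm1, Utp20 and Ddx10 passed without each library in turn. With the muscle score as a covariate, Ddx10 passed (-0.47, adjusted p = 0.0456) while Npm1 (-0.48, adjusted p = 0.0617), Utp20 (-0.51, adjusted p = 0.0737) and Ncl (-0.31, adjusted p = 0.198) did not. The differences of these 4 were about as large as without the score, while that of Heatr1 went from -0.47 to -0.22. The members' median went from -0.24 to -0.19, and calls over all genes fell from 2802 to 1007 of 18918. Muscle sums did not overlap between these groups (288 to 2082 CPM in WT, 5857 to 14595 CPM in KO). This fit can therefore hardly separate the score from the genotype. Of the 20 muscle markers 17 were higher in KO, and 4 of 18 cell cycle markers were lower, with sums of 590 to 812 CPM in KO against 784 to 1051 CPM in WT. Tenocyte marker sums were 90144 to 110060 CPM in KO and 49247 to 61001 CPM in WT, without overlap, and 5 of the 10 markers were called higher. Scx, the gene that drives the recombinase and far higher in KO, is among these 10 markers. The part of cell division and of tenocyte content was not tested. Library totals without scaling factors shifted the median of all genes to -0.18 and that of the members to -0.40, and gave 24 lower members.

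At day 7, where 5.42% of all genes were lower in KO and 9.39% higher, 12 listed pathway genes outside the 39 were lower. These were 1 of 12 other RNA polymerase I factors (Taf1d, -0.41), 1 of 34 processome and 40S factors (Dcaf13, -0.33), 5 of 48 60S factors, 4 of 13 exosome genes and 1 of 12 snoRNA hosts (Snhg15, -0.48). Mdn1, a giant ATPase that strips factors from the 60S precursor, had a log2 difference of -0.54 ± 0.15. The exosome's helicase gene Skiv2l2 had 42.5 to 48.7 CPM in WT and 29.0 to 31.4 CPM in KO (-0.57 ± 0.07, adjusted p = 7.73e-05). Of the 11 genes of the MYC network 2 were higher, Mnt (0.48) and Mxd4 (0.27), whose proteins compete with MYC for MAX. Myc itself, chosen after its value was seen, was at -0.33 ± 0.23 and did not pass (edgeR adjusted p = 0.366). A change in MYC activity was not tested.

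At day 14, 0 members were called between KO and WT by edgeR in either direction, where 1.06% of all genes were higher and 0.719% lower (1.78% either way). At an unadjusted p below 0.05, 10 were lower and 0 higher, beside 16.7% of all genes in either direction. DESeq2 called 1 lower, Ddx10 (-0.35, adjusted p = 0.0335), beside 759 of 18900 genes in either direction. The median was -0.18 (-0.01 over all genes) and 2 of 39 values were positive. The median was -0.11 without KO day 14 replicate 1, -0.11 without WT day 14 replicate 1, -0.28 without WT day 14 replicate 4, and -0.30 with library totals, which moved that of all genes to -0.13. No member was free of overlap in either direction, against 2.99% and 3.14% of all genes. Ddx10 had 20.5, 21.7, 18.1 and 17.3 CPM in WT and 12.9, 14.5, 15.6 and 17.8 CPM in KO (edgeR -0.36 ± 0.10, adjusted p = 0.0753). Utp20 had a difference of -0.17 ± 0.12, Npm1 -0.27 ± 0.11 and Ncl -0.13 ± 0.10.

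Day 14 turned on single libraries. WT day 14 replicate 4 was lowest of its group in 34 of 39 members, with a summed member level of 1408 CPM against 1691 to 1944 in the other 3. It also had the highest summed tenocyte and muscle markers of its group. Without it, 8 members were lower in KO: Ddx10, Ddx18, Gnl3, Ltv1, Nip7, Nolc1, Nop16 and Tsr1. Calls over all genes rose as well, from 337 of 18918 to 1672 of 19452. KO day 14 replicate 1 in turn was lowest of its group in 37 members. What sets these libraries apart was not tested.

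The genotype difference itself was compared between days by the interaction of genotype and day. It was called for 0 members and 0 genes of all tested (0%) by edgeR. An unadjusted p below 0.05 was found for 1 member, Utp20 (0.38 ± 0.17, adjusted p = 0.443), beside 10.8% of all genes. DESeq2 called 190 genes and 0 members. A smaller difference at day 14 than at day 7 was thus not shown.

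Against WT day 0, with which the WT comparisons share their controls, 15 members were higher and 0 lower at KO day 7 (29.4% and 28.3% of all genes, 57.7% either way). With an unadjusted p below 0.05, 16 were higher and 2 lower, beside 61.7% of all genes in either direction. DESeq2 called 2 lower. The median was 0.24, set beside 0.44 for WT day 7. Groups did not overlap for 20 higher members and 3 lower (28.4% and 27.7% of all genes). Gnl3 had a log2 change of 0.89, Nhp2 0.83, Npm1 0.71 and Nop58 0.69. At KO day 14, 6 were higher and 3 lower (25.4% and 25% of all genes, 50.3% either way), with a median of 0.13. Without KO day 14 replicate 1 these were 10 and 1, without replicate 4 they were 3 and 5, and without KO day 14 replicate 3 or WT day 0 replicate 1 they were 3 and 3. The median was 0.08 without KO day 14 replicate 4, 0.06 with the muscle score and 0.01 with library totals, which moved that of all genes to -0.12. Those higher were Gnl3 (0.77), Nop58 (0.52), Nhp2 (0.47), Npm1 (0.46), Nip7 (0.44) and Polr1c (0.26). The lower 3 were Polr1a with 21.9, 28.9, 22.8 and 37.0 CPM (-0.66 ± 0.15, adjusted p = 0.000904), Nop10 with 12.7, 14.6, 14.6 and 19.9 CPM (-0.45 ± 0.14, adjusted p = 0.0138) and Dkc1 (-0.42 ± 0.14, adjusted p = 0.0139). With the muscle score 3 were higher at each day. Calls over all genes went from 10917 to 8401 at KO day 7 and from 9519 to 7759 at KO day 14. From KO day 7 to KO day 14, 1 member fell and 0 rose (8.57% and 7.09% of all genes). The median of the members over this interval was -0.154 (0.001 over all genes), and 7 values were positive. From WT day 7 to WT day 14 the median was -0.155, also with 7 positive values. The KO median was -0.07 without KO day 14 replicate 1 and -0.21 without KO day 14 replicate 4. The member that fell was Noc2l, at -0.39 ± 0.12 (adjusted p = 0.027), and its call was lost in 5 of 8 fits that left out a library. With an unadjusted p below 0.05, 9 were lower and 0 higher, beside 30.2% of all genes in either direction. DESeq2 called 0 higher.

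**Figure D4:**
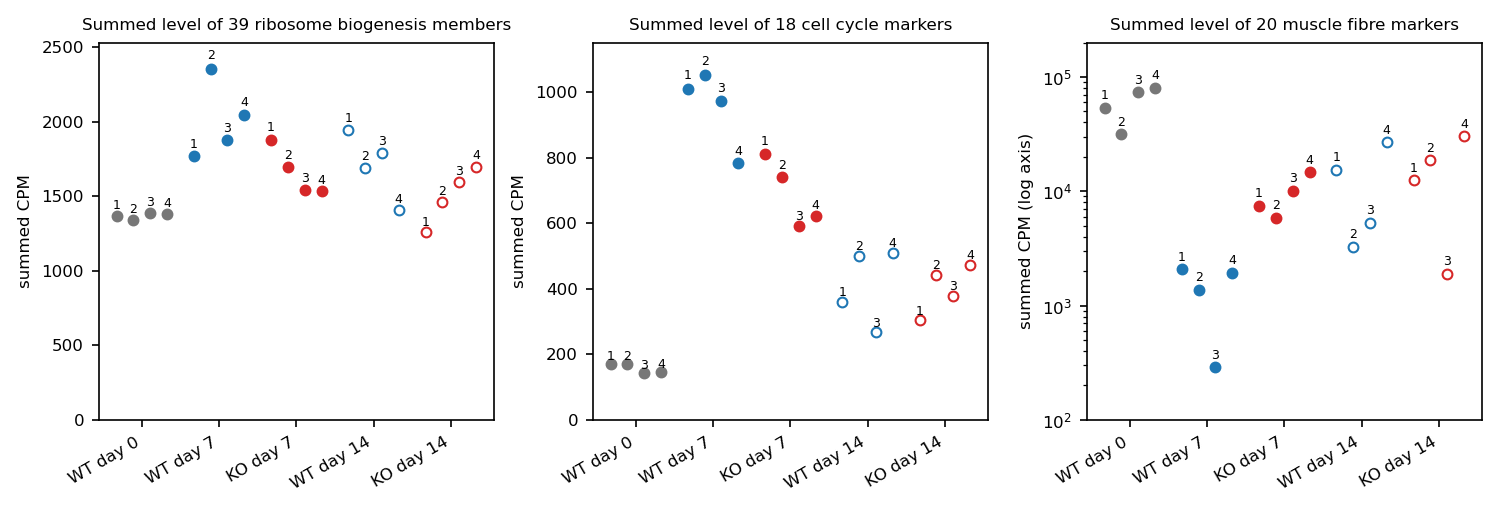
Summed level in CPM of the 39 members (left), of 18 cell cycle markers (centre) and of 20 muscle fibre markers (right, log axis) in each library; small digits are replicate numbers. The member sum is 1343 to 1389 CPM at WT day 0 and 1769 to 2358 CPM at WT day 7. The group mean of the muscle markers is lowest at WT day 7, though KO day 14 replicate 3, at 1905 CPM, lies within the WT day 7 range.

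The members varied together among libraries of the same group. Their summed level was 1371 ± 20.5 CPM at WT day 0, 2012 ± 257 at WT day 7, 1663 ± 161 at KO day 7, 1708 ± 226 at WT day 14 and 1502 ± 188 at KO day 14 (SD, n = 4). The median coefficient of variation of a member was 5.82% at WT day 0, where that of all genes was 12.4%. It was 14.5% at WT day 7, 9.62% at KO day 7, 16.5% at WT day 14 and 14.9% at KO day 14, against 13.8%, 12.9%, 17.9% and 15.3% for all genes. KO day 7 replicate 1 was highest of its group in 32 members (29.1% of all genes) and WT day 7 replicate 1 was lowest in 25 (32.2%). At WT day 0 no library was highest in more than 14.

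By mean level, WT day 7 was the highest of the 5 groups for 29 members. The order differed for 10. Polr1c, Tsr1, Nip7 and Noc3l had their highest mean at WT day 14, Polr1a, Nop10 and Rrp12 at WT day 0, and Rrp9, Bysl and Rrs1 at KO day 7. Neighbouring groups in these orders often overlapped. For Rrs1, a factor that brings the 5S particle into the 60S subunit, the means were 17.9 ± 1.15 CPM at KO day 7, 17.2 ± 2.08 at WT day 14 and 16.5 ± 4.74 at WT day 7, which did not differ beyond their spread.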

How the data were processed

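The authors deposited raw counts per gene for 20 libraries, whole numbers for 24885 genes, and their edgeR results for 13266 genes, with log2 fold changes and p-values, per the file headers. FastQC, STAR and edgeR and the build mm10 are named in the submitters' processing notes; for versions, counting tool, annotation and strand, no statement was found in the labels.

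The count analysis ran under R 4.3.3, edgeR 4.0.16 and limma 3.58.1. filterByExpr passed 18918 genes, which were scaled with TMM, and fitted with 1 mean per group over all 20 libraries (robust quasi-likelihood). Calls used a Benjamini-Hochberg adjusted p below 0.05 over all genes. The exact permutation test of 4 against 4 libraries has 70 arrangements and a smallest p of 0.0286. Log CPM used a prior count of 2. Positions and exon lengths are from GENCODE annotation of GRCm38. The procedure was tested on simulated data.

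Groups came from sample titles. Members and lists were chosen with earlier results of these data known. All 39 members could be named. Values in every library were given for up to 3 members per role with the smallest p in WT day 7 vs WT day 0, those called between KO and WT, and those called against the main direction. Up to 4 genes with the smallest p of each other list could be named; Myc at day 7, set beside Mnt and Mxd4, falls outside that rule and was chosen after its value was seen.

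Alternatives were RLE scaling, no filter, a filter of 1 CPM in 4 libraries, DESeq2 1.42.0, the compared groups only, a replicate block, leaving out each library, and a covariate for muscle (the score of 20 genes). Library totals without scaling factors, and leaving out the 4 members that share at least 5% of exon length with another gene, were chosen after seeing the data.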

Additional observations from a re-analysis of the deposited data

Results flagged for a closer look

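Within groups of 4 libraries, 9 of 195 member and group pairs had a library far from the other 3, by a gap above Dixon's critical value for 4 samples. Chance flags about 1 in 20 such groups, so this is about the number chance gives. Of the 9, 4 were in WT day 7 replicate 2: Dkc1 with 37.66 CPM against 25.66 to 27.26 in the other 3, Nhp2 with 45.44 against 33.97 to 35.4, Ncl with 505.4 against 395.8 to 411.3 and Ebna1bp2 with 49.33 against 38.22 to 40.02. The other 5 were at WT day 0, where the spread is small. Replicate 2 there had 29.21 CPM of Nop58 (24.48 to 25.07 in the others) and 16.28 of Rrp9 (17.12 to 17.24). Replicate 1 had 22.5 CPM of Nop10 (20.56 to 20.87) and 29.81 of Pes1 (32.26 to 32.64), and replicate 4 had 22 CPM of Heatr1 (24.49 to 24.74).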

How the results depend on the processing

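With the muscle score as a covariate, higher than WT day 0 were 4 at WT day 7, 7 at WT day 14, 3 at KO day 7 and 3 at KO day 14. Lower were 0 at WT day 14 against day 0, 1 at WT day 14 against WT day 7 and 1 in KO against WT at day 7. Calls over all genes also fell in each of these comparisons. Muscle sums did not overlap between the groups of any of them, so these fits can hardly separate the score from day or genotype. Library totals without scaling factors gave 24 lower in KO at day 7 and 1 at day 14, 16 lower from WT day 7 to day 14, 10 lower from KO day 7 to day 14, 1 lower at WT day 14 against day 0, and 2 higher and 6 lower at KO day 14 against WT day 0. With the compared groups only, 10 were higher at KO day 14, 3 lower at KO day 7 and 1 lower at WT day 7, each against WT day 0, and 0 fell from KO day 7 to day 14, as was so without the members that share exons. Lower at KO day 7 against WT day 0 were 2 with the stricter filter, with DESeq2 and with RLE scaling, and 1 with the replicate block; at WT day 14 against WT day 0 1 was lower with no filter, and DESeq2 called 1 lower in KO at day 14. The cause was not tested. Leaving out each library in turn gave 21 to 27 higher at WT day 7, 15 to 22 higher and 1 to 2 lower at WT day 14, 11 to 15 higher and 0 to 2 lower at KO day 7, and 3 to 10 higher and 1 to 5 lower at KO day 14, all against WT day 0. It gave 4 to 12 lower from WT day 7 to day 14, 0 to 4 from KO day 7 to day 14, and in KO against WT 3 to 5 lower at day 7 and 0 to 8 at day 14. The 10 higher at KO day 14 came without its replicate 1, and the 3 without its replicate 3 or 4 or WT day 0 replicate 1; the 4 from KO day 7 to day 14 came without KO day 14 replicate 4. Counts of 0 higher members in KO against WT, in the interaction and from day 7 to day 14 were 0 under every alternative run. No single member's log2 change that had been called changed sign under any alternative run.

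No pairing by replicate number was assumed. Of 40 correlations between same-numbered libraries of different groups, 14 were over 0.1, and they ran from -0.165 to 0.272. Differently numbered libraries were not correlated, so these values do not settle whether the numbers pair the samples. The replicate block made 1 further call and lost 2 of 351 member values. Every member had at least 188 counts in each library. At WT day 0, where libraries differ least, counting error can be as large as their spread, as for Gar1 with 375 to 707 counts and a level of 11.4 ± 0.166 CPM.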

Other observations

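In the authors' deposited table, 26 members were higher and 0 lower at WT day 7 against WT day 0 (false discovery rate below 0.05). By the same cutoff 72.7% of its 13266 genes were called in either direction. For KO against WT at day 7 it gave 0 members higher and 5 lower, beside 21.7% of its genes in either direction. Its column headed as KO day 14 against WT day 7 holds, in all 13266 genes and within 2e-09, the interaction of genotype and day in place of that comparison.

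The exosome helicase gene Skiv2l2 was the only gene of the listed pathway sets called lower in KO at both days, with 34.1 to 44.3 CPM in WT and 29.6 to 32.1 CPM in KO at day 14 (log2 difference -0.32 ± 0.07, edgeR adjusted p = 0.03). At WT day 0 it had 42.8 to 45.4 CPM.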
